A study of Mus musculus with 11 samples.

Results

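Heat shock factors and a set of HSP70, HSP90 and mitochondrial chaperone genes were followed in mouse oocytes and 2-cell embryos. The 10 genes were the transcription factors Hsf1 and Hsf2, the HSP70 family members Hspa1a, Hspa1b, Hspa8, Hspa5 and Hspa9, the cytosolic HSP90 genes Hsp90aa1 and Hsp90ab1, and the mitochondrial chaperonin Hspd1. They were chosen by symbol, matched through Entrez numbers, and all 10 were found among the 24421 genes of the count table. All 10 also passed the low-count filter of every comparison.

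RNA sequencing of total RNA gave 11 libraries in 4 groups. Knockout 2-cell embryos (2 libraries, numbered 2 and 3) came from eggs of Daxx f/f; Zp3-cre mothers fertilised with JF1 sperm, so that the maternal Daxx copy was deleted and the paternal copy was intact (m-z+). Control 2-cell embryos (3 libraries) came from Daxx f/f mothers without Cre and JF1 sperm (m+z+). Knockout metaphase II (MII) oocytes (3 libraries) came from Daxx f/f; Zp3-cre females, and control MII oocytes (3 libraries) from Daxx f/f females. The floxed allele was Daxxtm2Led and was carried by all mothers, whose background mixed C57BL/6J with 129/Sv. Zp3-cre drives recombination in growing oocytes, so no other maternal tissue is the target of the deletion, and the transgene itself was present in knockout females only. Each library was a pool of 50 cells or embryos from 2 to 3 females more than 8 weeks old. The JF1 males that gave the sperm for both embryo groups were 8 weeks old. Ovulation was induced with 5 IU of PMSG and then 5 IU of hCG. Oocytes were taken 20 hours after hCG, and embryos were cultured in KSOM until 33 hours after in vitro fertilisation.

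Heat shock factors bind repeated GAA units, the heat shock element, in front of chaperone genes and switch those genes on when unfolded protein builds up. HSP70 and HSP90 chaperones hold and refold proteins in the cytosol, while HSPA5 works in the endoplasmic reticulum (ER) and HSPA9 and HSPD1 work inside mitochondria. In mice, Hsf1 is a maternal-effect gene: eggs that lack it give embryos that stop dividing early, and Hsp90aa1 depends on it in oocytes. Hspa1a and Hspa1b are among the first genes transcribed when the mouse embryonic genome is activated. DAXX, which loads histone H3.3 into chromatin, has been reported in human cells to act with HSF1 on the HSP70 promoter.

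Upstream sequence from the RefSeq promoter table (GRCm38.p6) was used for 5 of the 10 genes: Hsf2, Hspa1a, Hspa1b, Hspa5 and Hspd1. The 250 bases before the start site are shown for 4 of them, because they carry the heat shock and ER stress elements by which these genes are usually grouped. They run 5′ to 3′ on the gene's strand. In Hspa1a (chr17:34972157-34972406, minus strand) and Hspa1b (chr17:34959239-34959488, minus strand), the capitals mark a heat shock element of 2 units and a reversed CCAAT box. In Hspa5 (chr2:34771840-34772089, plus strand) they mark an ER stress response element, and in Hspd1 (chr1:55087933-55088182, minus strand) a run that holds 2 overlapping heat shock elements of 3 units.
Hspa1a: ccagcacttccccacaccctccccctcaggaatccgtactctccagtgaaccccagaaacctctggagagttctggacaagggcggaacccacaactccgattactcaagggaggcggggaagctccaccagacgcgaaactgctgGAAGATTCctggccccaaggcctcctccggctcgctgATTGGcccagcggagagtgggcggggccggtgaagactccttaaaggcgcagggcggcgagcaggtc
Hspa1b: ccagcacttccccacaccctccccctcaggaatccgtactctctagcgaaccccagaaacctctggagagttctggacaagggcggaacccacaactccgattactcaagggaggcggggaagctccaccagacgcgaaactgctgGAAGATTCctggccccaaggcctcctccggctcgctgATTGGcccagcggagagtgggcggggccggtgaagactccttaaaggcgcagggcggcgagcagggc
Hspa5: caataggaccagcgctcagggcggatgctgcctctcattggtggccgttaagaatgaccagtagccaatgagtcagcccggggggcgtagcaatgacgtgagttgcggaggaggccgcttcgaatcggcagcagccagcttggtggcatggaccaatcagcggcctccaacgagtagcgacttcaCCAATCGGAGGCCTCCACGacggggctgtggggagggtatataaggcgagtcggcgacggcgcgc
Hspd1: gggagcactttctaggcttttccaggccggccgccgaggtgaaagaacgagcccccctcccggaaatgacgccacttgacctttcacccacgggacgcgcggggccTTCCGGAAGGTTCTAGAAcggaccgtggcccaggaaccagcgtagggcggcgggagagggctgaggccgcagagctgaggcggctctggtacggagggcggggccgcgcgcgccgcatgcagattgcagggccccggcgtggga

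The Hspa1a and Hspa1b windows were identical at 247 of 250 bases (98.8%). In both, the element GAAGATTC began at base -104 from the start site and the reversed CCAAT box at base -67. The 2-unit motif searched was GAANNTTC, which reads the same on both strands and occurred in 6.69% of 32851 promoter windows of this length. The opposite arrangement of the 2 units, TTCNNGAA, was also searched: it occurred in 7.17% of windows and had no match in either of these 2. In Hspa5, the element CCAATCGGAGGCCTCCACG began at base -65 and matched the pattern CCAAT, any 9 bases, then CCACG, which occurred on either strand in 0.113% of windows. Its first 5 bases are also 1 of 4 CCAAT boxes in that window, and CCAAT occurred on either strand in 33.8% of windows. In Hspd1, the 3-unit motif (GAA, any 2 bases, TTC, any 2 bases, GAA) matched at bases -144 and -139, with the first match on the reverse strand, and this motif occurred in 0.466% of windows. The matches describe the letters of these windows and are not evidence of binding. Hspd1 had a further start site in the table whose window held none of these motifs. The Hsf2 window, not printed, held no heat shock or ER stress element. The searched windows of Bag3 and Dnajb9, cochaperone genes given below, held none of these elements either.

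The library labels were first checked on Daxx. Its level, in CPM (a gene's counts scaled to a common library total), was 24.2 ± 1.88 in knockout 2-cell embryos and 39.7 ± 6.14 in control 2-cell embryos (SD, n = 2 and 3). It was 8.14 ± 0.286 CPM in knockout oocytes and 92.6 ± 5.67 CPM in control oocytes (SD, n = 3 each). Total counts were 17978192 to 25308468 in embryo libraries and 32582998 to 39798586 in oocyte libraries. The summed level of 13 oocyte marker genes was 3100 to 4300 CPM in embryos and 15776 to 16386 CPM in oocytes, and that of 13 2-cell marker genes was 961 to 1163 CPM in embryos and 2.79 to 4.89 CPM in oocytes. Granulosa and cumulus markers (18 genes) summed to 256 to 332 CPM in embryos and 103 to 115 CPM in oocytes, with Inha at 0 in every embryo library and Ptx3 and Ereg at 0 in every oocyte library. Nr5a2, a nuclear receptor gene in that list, made up most of the sum, with 226 to 310 CPM in embryos and 60.8 to 70.5 CPM in oocytes. The other 17 genes summed to 19.2 to 30.2 CPM in embryos and 36.8 to 47.1 CPM in oocytes, the opposite direction. The part of such cells in the results was not tested. The share of reads counted to Lars2 stood apart in some embryo libraries: it was 1.81% and 0.552% in knockout embryos 2 and 3, and 0.482%, 1.85% and 0.871% in control embryos 1, 2 and 3, against 0.142% to 0.201% in oocytes. All levels are shares of counted reads, so amounts per oocyte or per embryo, and a change in RNA content against a change in a gene, cannot be told apart.

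The 10 genes together took 0.253% and 0.256% of reads in knockout 2-cell embryos and 0.235%, 0.299% and 0.268% in control 2-cell embryos. They took 0.174% to 0.186% in knockout oocytes and 0.180% to 0.187% in control oocytes. Every embryo library was therefore above every oocyte library.

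**Figure D1:**
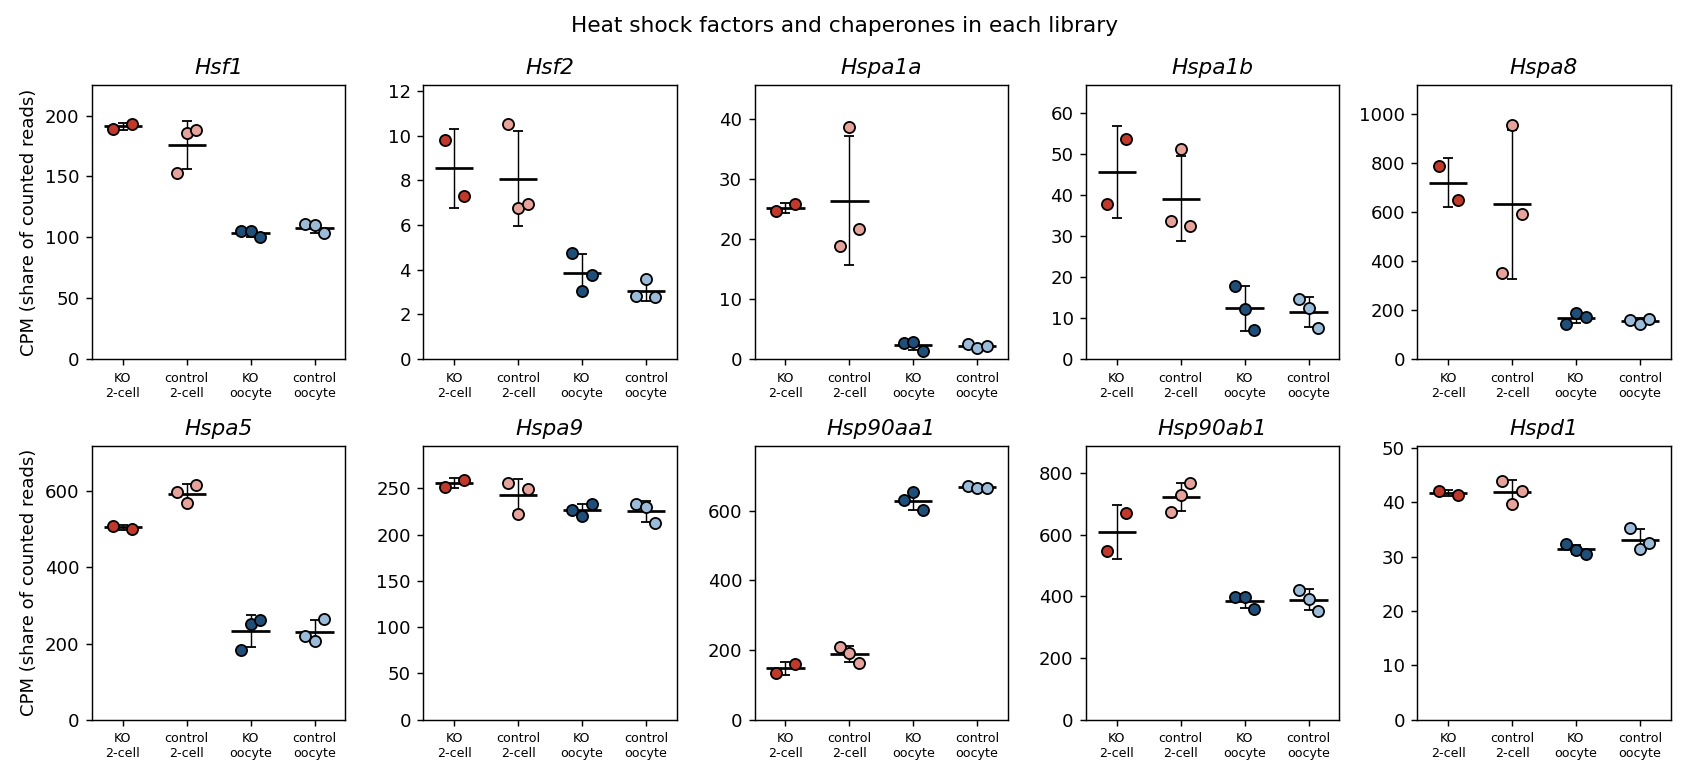
Level of each of the 10 genes in CPM (vertical axes, from 0), with 1 point per library, bars at the group mean and whiskers of 1 SD. Groups from left to right are knockout 2-cell embryos (n = 2), control 2-cell embryos (n = 3), knockout oocytes (n = 3) and control oocytes (n = 3); Hsp90aa1 is the gene that is lower in embryos, at 133 to 210 CPM against 603 to 672 CPM in oocytes.

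The first comparison asked how these genes differ between 2-cell embryos and the oocytes they come from. In knockouts, 8 of the 10 genes were higher in embryos, Hsp90aa1 was lower and Hspa9 did not pass (edgeR quasi-likelihood test, Benjamini-Hochberg adjusted p under 0.05). Among all 16592 genes tested there, 80.2% passed, 42.5% higher and 37.7% lower. Control embryos against control oocytes gave the same split, again with Hsp90aa1 lower and Hspa9 not passing, where 83.1% of 15577 genes passed, 43.1% higher and 40% lower. A call in itself therefore sets none of these genes apart. Libraries did not overlap between stages for 9 genes upward and 1 downward in knockouts, where 46.4% and 40.5% of all genes did so (86.9% in either direction), and for 8 upward and 1 downward in controls, where 44.3% and 40.7% did so (85% in either direction). An unadjusted p under 0.05 was reached by 9 of the 10 genes in each, where 81.3% of all genes reached it in knockouts and 83.8% in controls. The median log2 change of the 10 genes was 0.95 in knockouts and 1.10 in controls, beside 0.09 and 0.07 over all genes tested.

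Both transcription factors were higher in embryos. Hsf1 (Entrez 15499, chr15:76477362-76501155), the main stress-activated factor, stood at 189 and 193 CPM in knockout 2-cell embryos and at 153, 186 and 188 CPM in control 2-cell embryos. It stood at 105, 105 and 100 CPM in knockout oocytes and at 111, 110 and 103 CPM in control oocytes. No embryo library overlapped an oocyte library. The log2 change was 0.84 (SE 0.07, edgeR adjusted p = 3.6e-06) in knockouts and 0.67 (SE 0.10, edgeR adjusted p = 3.7e-05) in controls. Hsf2 (Entrez 15500, chr10:57483766-57513143), a factor known from gametogenesis and development, was far scarcer. It had 9.80 and 7.29 CPM in knockout embryos and 10.5, 6.74 and 6.95 CPM in control embryos. Oocytes had 4.74, 3.06 and 3.76 CPM in knockouts and 2.82, 3.59 and 2.76 CPM in controls. Stages were again fully apart, with log2 changes of 1.10 (SE 0.23, edgeR adjusted p = 0.0015) in knockouts and 1.37 (SE 0.23, edgeR adjusted p = 0.00016) in controls. Hsf2 overlaps the noncoding gene 4930467K11Rik, and the strand handling of the counts is unknown, so reads in the overlap are uncertain.

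Of the stress-inducible HSP70 pair, Hspa1a showed the largest log2 rise of the 10 genes. Hspa1a (Entrez 193740, chr17:34969359-34972156) had 24.6 and 25.8 CPM in knockout embryos and 18.8, 38.7 and 21.6 CPM in control embryos. The oocyte values were 2.65, 2.84 and 1.32 CPM in knockouts and 2.42, 1.88 and 2.13 CPM in controls. The lowest embryo library thus lay well above the highest oocyte library. Group means were 11.1 times as high in knockout embryos as in knockout oocytes and 12.3 times as high in control embryos as in control oocytes. The fitted log2 change was 3.43 (SE 0.26, edgeR adjusted p = 1.8e-06) in knockouts and 3.60 (SE 0.28, edgeR adjusted p = 1.8e-07) in controls.

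Its near copy Hspa1b (Entrez 15511, chr17:34956429-34959238) had 37.7 and 53.6 CPM in knockout embryos and 33.8, 51.1 and 32.6 CPM in control embryos. Its oocyte levels were 17.9, 12.2 and 7.04 CPM in knockouts and 14.6, 12.4 and 7.50 CPM in controls. Stages did not overlap, although the oocyte libraries of each genotype spread up to 2.54-fold. The log2 change was 1.85 (SE 0.38, edgeR adjusted p = 0.0052) in knockouts and 1.75 (SE 0.24, edgeR adjusted p = 3.5e-05) in controls. The call in knockouts was lost without embryo replicate 2 (log2 change 2.09, edgeR adjusted p = 0.078) and without embryo replicate 3 (log2 change 1.53, edgeR adjusted p = 0.131).

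Reads of the pair are hard to assign, because 58.8% of the 50-base windows of the Hspa1a transcript also occur in Hspa1b (GENCODE transcripts) and 62.3% of those of Hspa1b occur in Hspa1a. Summed, which removes the split, the pair had 62.4 and 79.4 CPM in knockout embryos and 52.6, 89.9 and 54.2 CPM in control embryos. The sum was 20.6, 15.02 and 8.36 CPM in knockout oocytes and 17.1, 14.2 and 9.63 CPM in control oocytes. The sum rose by 2.24 (log2) in knockouts (SE 0.36, edgeR adjusted p = 0.0018) and by 2.24 in controls (SE 0.25, edgeR adjusted p = 1.1e-05). In knockouts this call too was lost without embryo replicate 2 (edgeR adjusted p = 0.057) or 3 (edgeR adjusted p = 0.076). Hspa1a made up 39.5% and 32.5% of the pair's reads in knockout embryos and 35.8%, 43.1% and 39.9% in control embryos. In oocytes it made up 12.9%, 18.9% and 15.8% in knockouts and 14.2%, 13.2% and 22.2% in controls, so the deposited split differed between stages in all libraries. This split rests on how the authors' counting treated shared reads, of which the sources used here say nothing.

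The constitutive cytosolic HSP70 gene, Hspa8 (Entrez 15481, chr9:40801276-40805202), varied widely among control embryos. It had 790 and 651 CPM in knockout embryos and 349, 954 and 591 CPM in control embryos. In oocytes it had 143, 186 and 173 CPM in knockouts and 160, 143 and 164 CPM in controls. Embryos were above oocytes in every library, with log2 changes of 2.05 (SE 0.12, edgeR adjusted p = 2.6e-07) in knockouts and 1.99 (SE 0.38, edgeR adjusted p = 0.0038) in controls. The 3 control embryo libraries differed 2.73-fold, and among 2439 genes with a mean of at least 100 CPM there only 13, Hspa8 included, spread as much, against a median spread of 1.20-fold. Within each embryo genotype the order of Hspa8 followed the order of the Lars2 share. The part of whatever sets that share in these levels was not tested. The introns of Hspa8 hold the small nucleolar RNA genes Snord14c, Snord14d and Snord14e, which were not counted as genes of their own.

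Hspa5 (Entrez 14828, chr2:34772090-34776529), the ER chaperone also called BiP, had 509 and 500 CPM in knockout embryos and 598, 567 and 615 CPM in control embryos. Oocytes had 184, 252 and 261 CPM in knockouts and 221, 207 and 265 CPM in controls. It was higher in every embryo library, with log2 changes of 1.07 (SE 0.14, edgeR adjusted p = 0.00012) in knockouts and 1.34 (SE 0.10, edgeR adjusted p = 2.0e-07) in controls. Without knockout embryo replicate 3 the knockout value was 1.04 and did not pass (edgeR adjusted p = 0.053). Knockout oocyte library 1, the lowest oocyte library for Hspa5, was also the lowest for Hsp90b1, the HSP90 of the ER (240 CPM), and control oocyte library 3 was the highest for both (351 CPM of Hsp90b1). Hsp90b1 did not share the rise: it had 238 ± 19.7 CPM in knockout embryos and 289 ± 42.2 CPM in knockout oocytes, and 260 ± 21.5 CPM in control embryos and 315 ± 32.2 CPM in control oocytes (SD). In controls it fell by 0.30 in log2 terms (SE 0.11, edgeR adjusted p = 0.019). Hspa5 overlaps Rabepk, so its reads near that overlap are uncertain.

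The mitochondrial chaperone genes Hspa9 and Hspd1 differed little between stages, whereas Hspe1 and Trap1, given below, were lower in control embryos than in control oocytes. Hspa9, the mitochondrial HSP70 that pulls proteins in through the inner membrane, had 252 and 259 CPM in knockout embryos and 256, 223 and 250 CPM in control embryos. The oocyte values were 226, 220 and 233 CPM in knockouts and 233, 230 and 213 CPM in controls. The stages overlapped in controls and did not in knockouts. Neither log2 change passed: it was 0.13 (SE 0.07, edgeR adjusted p = 0.14) in knockouts and 0.08 (SE 0.09, edgeR adjusted p = 0.37) in controls. The knockout change passed under RLE factors (edgeR adjusted p = 0.0186), under library totals (edgeR adjusted p = 0.030), in DESeq2 (adjusted p = 0.0096) and without knockout embryo replicate 2 (edgeR adjusted p = 0.0499).

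Hspd1 (Entrez 15510, chr1:55077833-55088243), which forms the barrel of the mitochondrial chaperonin, had 42.1 and 41.3 CPM in knockout embryos and 44.0, 39.6 and 42.2 CPM in control embryos. Its oocyte levels were 32.3, 31.2 and 30.6 CPM in knockouts and 35.3, 31.5 and 32.5 CPM in controls. Stages did not overlap, and the rise was small: 0.37 (SE 0.09, edgeR adjusted p = 0.0046) in knockouts and 0.32 (SE 0.11, edgeR adjusted p = 0.017) in controls on the log2 scale. The control call was lost without control oocyte replicate 2 (log2 change 0.26, edgeR adjusted p = 0.117) or 3 (log2 change 0.31, edgeR adjusted p = 0.057).

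Hspe1, which encodes the lid of the same chaperonin, went the other way. Its start site lies 216 bases from that of Hspd1 on the opposite strand, and its window holds the same 2 overlapping heat shock elements as the Hspd1 window printed above. It had 12.2 and 11.4 CPM in knockout embryos and 7.73, 9.51 and 7.99 CPM in control embryos. In oocytes it had 37.9, 38.4 and 35.0 CPM in knockouts and 35.5, 37.4 and 33.7 CPM in controls. Every embryo library was lower, and Hspe1 fell by 1.70 in knockouts (SE 0.11, edgeR adjusted p = 5.1e-07) and fell by 2.10 in controls (SE 0.14, edgeR adjusted p = 3.9e-08) on the log2 scale. The ratio of Hspd1 to Hspe1 reads was 3.45 and 3.61 in knockout embryos and 5.69, 4.16 and 5.28 in control embryos, against 0.811 to 0.873 in knockout oocytes and 0.843 to 0.995 in control oocytes. The annotated spans of Hspd1 and Hspe1 overlap at their 5′ ends, and the strand handling of the counts is unknown, so reads in the overlap, and with them this ratio, are uncertain.

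**Figure D2:**
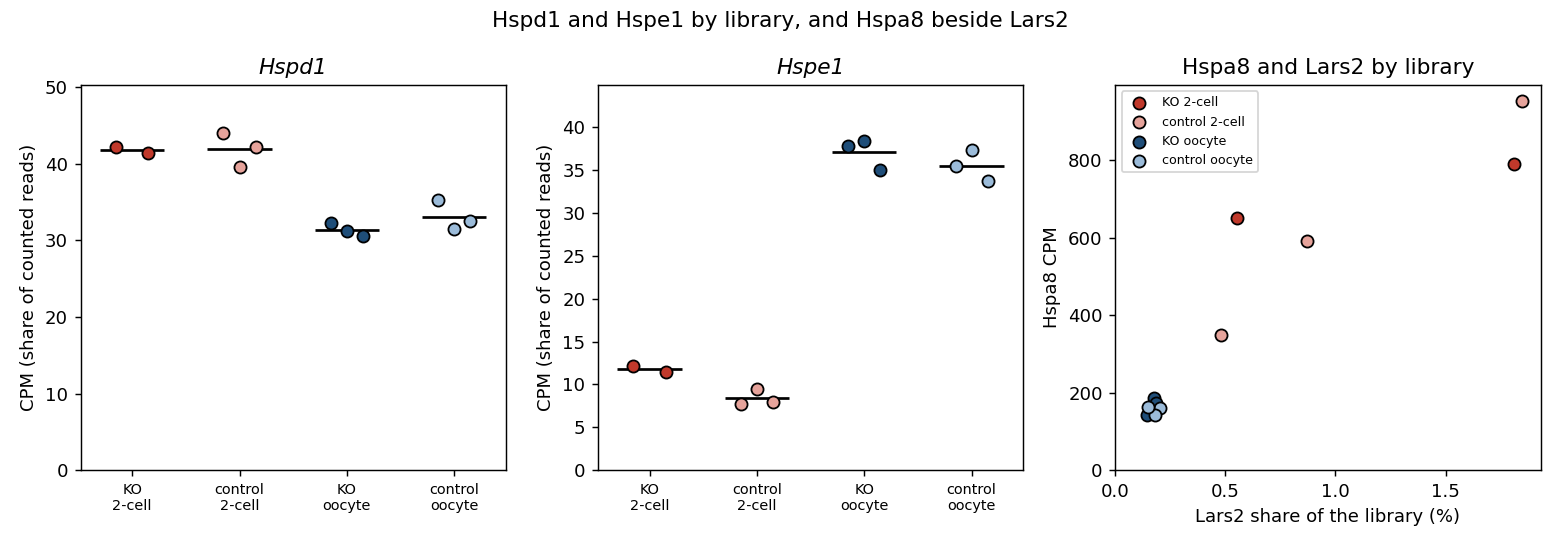
Left and middle, levels of Hspd1 and Hspe1 in CPM (vertical axes, from 0), with 1 point per library and bars at the means of knockout embryos, control embryos, knockout oocytes and control oocytes; Hspd1 is higher and Hspe1 lower in every embryo library. Right, the Hspa8 level in CPM against the Lars2 share of reads in percent for the same 11 libraries, where control embryo library 2 has both the highest share (1.85%) and the highest Hspa8 level (954 CPM).

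The pair of cytosolic HSP90 genes moved in opposite directions. Hsp90aa1 (Entrez 15519, chr12:110691036-110696395), the stress-inducible HSP90, had 133 and 161 CPM in knockout embryos and 210, 193 and 164 CPM in control embryos. Oocytes had 629, 654 and 603 CPM in knockouts and 672, 665 and 665 CPM in controls. Every embryo library was far below every oocyte library. It fell by 2.14 in knockouts (SE 0.11, edgeR adjusted p = 9.7e-08) and fell by 1.84 in controls (SE 0.11, edgeR adjusted p = 1.4e-08) on the log2 scale. Hsp90ab1 (Entrez 15516, chr17:45567778-45573261), the constitutive HSP90, had 547 and 671 CPM in knockout embryos and 673, 728 and 766 CPM in control embryos. The oocyte values were 398, 398 and 359 CPM in knockouts and 421, 393 and 352 CPM in controls. It was higher in every embryo library, with log2 changes of 0.62 (SE 0.10, edgeR adjusted p = 0.00043) in knockouts and 0.87 (SE 0.09, edgeR adjusted p = 2.2e-06) in controls.

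Per kilobase of gene width, Hsp90aa1 held 17.2% and 17.0% of the cytosolic HSP90 level in knockout embryos and 21.0%, 18.4% and 15.4% in control embryos. It held 57.4%, 58.3% and 58.9% in knockout oocytes and 57.6%, 59.0% and 61.7% in control oocytes. The mean share was 17.8% ± 2.09 in embryos (SD, n = 5) and 58.8% ± 1.53 in oocytes (SD, n = 6), a difference of -41.0 percentage points. An exact permutation test over libraries gave a two-sided p of 0.00433, the smallest that 5 against 6 libraries allow. In control libraries alone the difference was -41.2 points with an exact permutation p of 0.1, the smallest that 3 against 3 allow. Both p-values followed from Hsp90aa1 being lower and Hsp90ab1 higher in every embryo library, so they add nothing to those levels. The corresponding share of inducible HSP70, Hspa1a plus Hspa1b over these and Hspa8, was 10.7% ± 2.54 in embryos and 9.06% ± 3.21 in oocytes (SD, n = 5 and 6). That difference of 1.68 points did not pass (exact permutation test, two-sided, p = 0.368), and each of its 3 genes rose. The size of this share is uncertain, because it would be too low if the counting dropped reads shared by Hspa1a and Hspa1b.

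**Figure D3:**
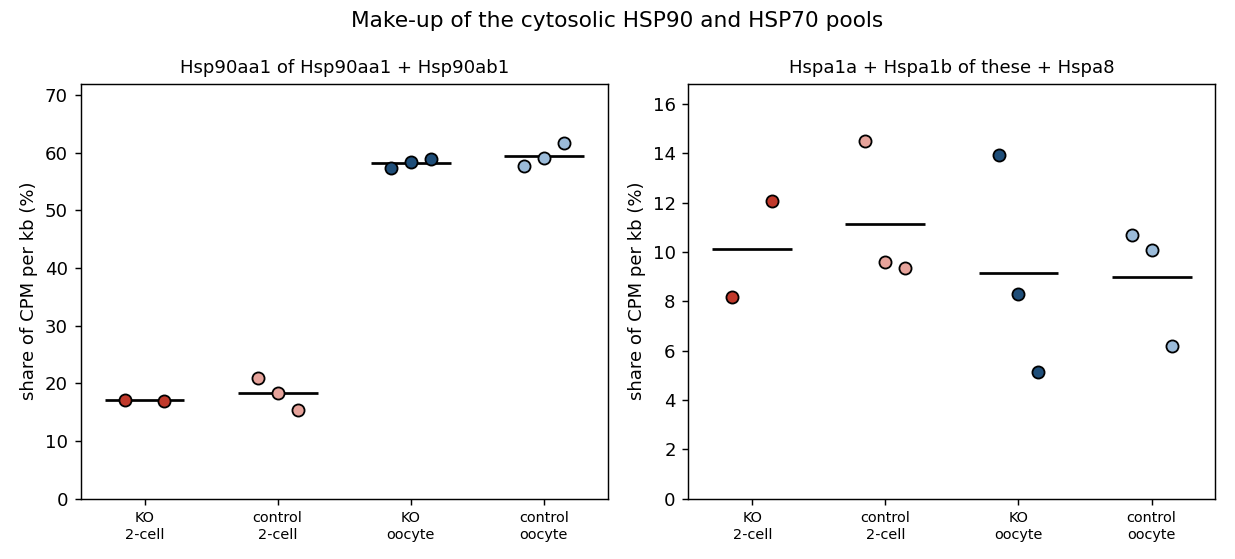
Share of the inducible genes in the cytosolic HSP90 and HSP70 levels, in percent of CPM per kilobase (vertical axes, from 0), with 1 point per library and bars at group means. The Hsp90aa1 share lies at 15.4% to 21.0% in embryos and 57.4% to 61.7% in oocytes, while the shares of Hspa1a plus Hspa1b overlap between stages.

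The order of levels per kilobase also changed between stages. In knockout 2-cell embryos it was led by Hsp90ab1 at 243 ± 34.8 CPM per kb, followed by Hspa8 (228 ± 31.2), Hspa5 (193 ± 2.44), Hspa9 (83.9 ± 1.76), Hsf1 (81.0 ± 1.17) and Hsp90aa1 (50.1 ± 6.72, SD, n = 2). Hspd1, Hspa1b, Hspa1a and Hsf2 followed, and Hsp90ab1 and Hspa8, and Hspd1 and Hspa1b, overlapped. In control 2-cell embryos the order was Hsp90ab1 (288 ± 18.6 CPM per kb), Hspa5 (227 ± 9.17), Hspa8 (200 ± 96.3), Hspa9 (79.8 ± 5.80), Hsf1 (74.4 ± 8.38), Hsp90aa1 (64.2 ± 7.99, SD, n = 3) and then Hspd1, Hspa1b, Hspa1a and Hsf2. There the libraries of Hspa5 and Hspa8, of Hspa9, Hsf1 and Hsp90aa1 as neighbours, and of Hspd1, Hspa1b and Hspa1a as neighbours overlapped. Hspa8 (111 to 302 CPM per kb) also overlapped Hsp90ab1 (269 to 306), which is not its neighbour. In control embryo library 2, Hspa8 was above Hsp90ab1 (302 against 290 CPM per kb).

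Oocytes of both genotypes shared an order of their own. Hsp90aa1 came first with 214 ± 8.67 CPM per kb in knockout oocytes and 227 ± 1.36 in control oocytes (SD, n = 3 each), above 99.0% and 99.1% of the genes with a read. Hsp90ab1, Hspa5, Hspa9, Hspa8, Hsf1, Hspd1, Hspa1b, Hsf2 and Hspa1a followed. Hspa1a was last, at 0.812 ± 0.295 CPM per kb in knockout oocytes and 0.768 ± 0.0966 in control oocytes. Only Hspa5 and Hspa9 in knockouts, and Hspa8 and Hsf1 in controls, overlapped as neighbours.

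**Figure D4:**
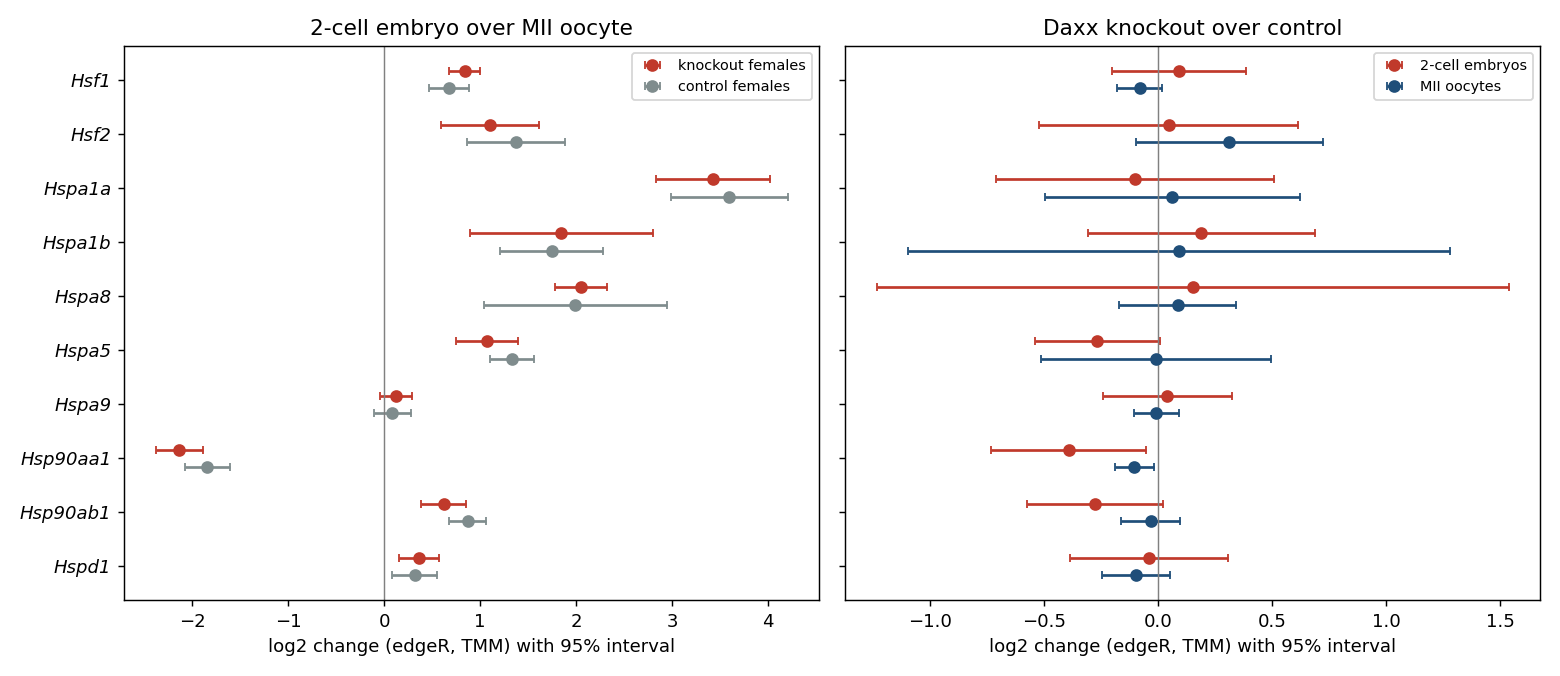
Log2 changes of the 10 genes (horizontal axes) with their unadjusted 95% intervals as whiskers, from the fits across all genes. The left panel gives 2-cell embryos over oocytes in knockouts and in controls, from -2.14 and -1.84 for Hsp90aa1 to 3.43 and 3.60 for Hspa1a, and the right panel gives knockout over control in embryos and in oocytes, where the intervals of the genes other than Hsp90aa1 include 0.

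The second comparison asked whether loss of Daxx in the oocyte changed these genes in MII oocytes. None of the 10 passed (edgeR quasi-likelihood test, adjusted p under 0.05), where 0.583% of 14235 genes did (0.45% higher and 0.133% lower), and 1 of 10 had an unadjusted p under 0.05, where 10.3% of all genes did. DESeq2 and limma-voom also called 0 of 10. The median log2 change of the 10 was -0.01, beside 0.0002 over all genes.

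Hsp90aa1 was the gene with the unadjusted p under 0.05. Its mean was 629 ± 25.5 CPM in knockout oocytes and 668 ± 4.01 CPM in control oocytes (SD, n = 3 each), a log2 difference of -0.11 (SE 0.04, edgeR adjusted p = 0.36). It was also the only member whose libraries did not overlap between genotypes, where 15.7% of all genes did not overlap (10.1% higher and 5.66% lower). Its 95% interval, which is not adjusted for the number of genes tested, covered 0.876 to 0.986 of the control level.

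How closely a change is bounded differed among the genes. For Hspa9 the 95% interval of the ratio of knockout to control oocytes ran from 0.928 to 1.06, and for Hsf1 from 0.883 to 1.01. For Hspa1b it ran from 0.467 to 2.43, and replicate 3 had the lowest value in either genotype. Hsf2 had the largest change in size, 0.31 (SE 0.19, edgeR adjusted p = 0.63), with an interval of 0.935 to 1.65. Log2 changes of the other 5 genes lay between -0.10 for Hspd1 and 0.09 for Hspa8. The summed handling and immediate early genes, which respond to culture and handling, were 197 to 220 CPM in knockout oocytes and 184 to 190 CPM in control oocytes; their part in these values was not tested.

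The third comparison put knockout against control 2-cell embryos. None of the 10 genes passed (edgeR quasi-likelihood test), where 0.026% of 15414 genes did, and 1 of 10 had an unadjusted p under 0.05, where 3.19% did. DESeq2 and limma-voom again called 0 of 10. The median log2 change was -0.0005 for the 10 and 0.002 over all genes. With 2 knockout libraries, the spread of that group rests largely on what it shares with the controls. Daxx itself did not pass here, with a log2 difference of -0.75 (SE 0.19, edgeR adjusted p = 0.54). The absence of a call in this comparison therefore does not show that a gene is unchanged.

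Both HSP90 genes and Hspa5 had lower CPM in every knockout embryo library than in any control library, and Hsf1 had higher CPM. So 4 of 10 did not overlap, where 17.8% of all genes did not (6.38% lower and 11.4% higher). Most of these gaps were narrow. The nearest knockout and control libraries had 161 and 164 CPM for Hsp90aa1, 671 and 673 CPM for Hsp90ab1, and 189 and 188 CPM for Hsf1. For Hspa5 they had 509 and 567 CPM. With 2 against 3 libraries, such a separation is weak and is not a test. Hsp90aa1 averaged 147 ± 19.8 CPM in knockout and 189 ± 23.5 CPM in control embryos (SD, n = 2 and 3), a log2 difference of -0.39 (SE 0.16, unadjusted p = 0.0259, edgeR adjusted p = 1.00). Hsp90ab1 averaged 609 ± 87.4 CPM in knockout and 723 ± 46.6 CPM in control embryos, with a log2 difference of -0.28 (SE 0.14, edgeR adjusted p = 1.00). Hspa5 averaged 504 ± 6.37 CPM in knockout and 593 ± 24.0 CPM in control embryos, with a log2 difference of -0.27 (SE 0.13, edgeR adjusted p = 1.00). Hsf1 averaged 191 ± 2.76 CPM in knockout and 176 ± 19.8 CPM in control embryos, with a log2 difference of 0.09 (SE 0.14, edgeR adjusted p = 1.00). Single libraries moved these values: without knockout replicate 2 the difference was -0.23 for Hsp90aa1 and -0.11 for Hsp90ab1, and without knockout replicate 3 it was -0.58 and -0.47. Without control replicate 1 that of Hsf1 was 0.014, and over all single omissions it reached 0.15, while that of Hspa5 ran from -0.30 to -0.24.

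The other 6 genes overlapped between embryo genotypes. Their log2 changes were -0.10 for Hspa1a, -0.04 for Hspd1, 0.04 for Hspa9, 0.05 for Hsf2, 0.15 for Hspa8 and 0.19 for Hspa1b. The interval was widest for Hspa8, at 0.425 to 2.91 times the control level, and it was 0.844 to 1.25 for Hspa9. Hspa1a, Hspa1b and Hsp90ab1 lie on chromosome 17, which also carries Daxx, at 1.05, 1.04 and 11.7 Mb from its end, and mothers of both genotypes carried the floxed Daxx locus.

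The difference between the embryo and the oocyte effect of the knockout was tested in 1 fit of all 11 libraries. None of the 10 genes passed, where 0.0118% of 17018 genes did, and 0 had an unadjusted p under 0.05, where 5.41% did. DESeq2 and limma-voom called 0 as well. The smallest p was that of Hsp90aa1, with a log2 difference of -0.30 (SE 0.15, unadjusted p = 0.0706, edgeR adjusted p = 0.93). The genotype comparisons share no library, but the stage comparisons share theirs with them.

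Beyond the 10 genes, 159 other genes in 10 lists of heat shock factors, chaperones, cochaperones and folding factors were read in the same fits. Between genotypes, 0 of 136 tested passed in oocytes (11 with an unadjusted p under 0.05, where 10.3% of all genes had one) and 0 of 146 in embryos (8 with an unadjusted p under 0.05, where 3.19% of all genes had one), by edgeR's quasi-likelihood test. DESeq2 called 1 in oocytes, Grpel2, an exchange factor of mitochondrial HSP70, at a log2 difference of -0.51 (adjusted p = 0.043). Limma-voom called 0 in either. The difference between stages passed for 0 of 152 (18 with an unadjusted p under 0.05, where 5.41% of all genes had one), and for 0 by DESeq2 or limma-voom. Between control stages, 55 of 146 were higher and 73 lower in embryos (37.7% and 50%), with a median log2 change of -0.28, where that of all genes was 0.07. Over all genes tested between control stages, 43.1% were higher and 40% lower, and the counts of each list are to be read against these shares.

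In oocytes, Hsf5, a germline heat shock factor, had 55.0 ± 4.40 CPM in knockout and 64.7 ± 6.29 CPM in control oocytes, and Hspa4l, an HSP110 relative, had 80.0 ± 3.49 CPM and 91.2 ± 5.69 CPM in the same order. Dnajb9, an ER cochaperone that binds HSPA5, had 13.9 ± 1.52 CPM in knockout and 10.2 ± 1.68 CPM in control oocytes. In embryos, Dnajb1, the classical HSP40 partner of HSP70, had 181 ± 4.94 CPM in knockouts and 132 ± 21.1 CPM in controls. Hsph1, an HSP110, had 271 ± 41.6 CPM in knockout and 341 ± 24.4 CPM in control embryos, and Bag1, an HSP70 exchange factor, had 93.6 ± 3.49 CPM and 123 ± 5.47 CPM in that order. None of these passed (edgeR adjusted p of 0.15 or more in oocytes and 1.00 in embryos).

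Of 19 classical HSF1 targets tested, 6 of which are among the 10 genes, 11 were higher and 7 lower in control embryos than in control oocytes, with a median log2 change of 0.32, beside 43.1% higher and 40% lower over all genes. Hsph1 rose by 0.69 in log2 terms (SE 0.08, edgeR adjusted p = 1.0e-05), and Dnajb1 fell by 1.13 (SE 0.11, edgeR adjusted p = 1.6e-06). Bag3, a cochaperone of HSP70 in selective autophagy, had 9848 reads over the 3 control embryo libraries and 3 over the 3 control oocyte libraries. That is a CPM ratio of 6047, with an exact 95% counting interval of 2068 to 29325. This interval covers counting error in the pooled reads only and leaves out the spread between libraries.

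Among other HSP70 and HSP110 genes, 4 rose and 6 fell of 10. Hspa2, the testis-enriched HSP70, had 52.6 ± 9.68 CPM in control embryos and 9.33 ± 0.577 CPM in control oocytes, a log2 difference of 2.47 (SE 0.15, edgeR adjusted p = 2.3e-08). Hspa4 had 116 ± 32.7 CPM in control embryos and 190 ± 3.96 CPM in control oocytes, and Hspa12a 29.2 ± 1.55 CPM and 71.7 ± 7.87 CPM in the same order; both fell. Of 14 HSP70 cochaperones, 7 rose and 5 fell, with Bag5 at 231 ± 29.8 CPM in control embryos and 6.26 ± 0.715 CPM in control oocytes among the rises, and Sil1 and Grpel1, exchange factors of the ER and of mitochondria, among the falls.

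Other HSP90 genes and cochaperones split into 7 rises and 9 falls of 20. Fkbp4, an immunophilin of steroid receptor complexes, had 136 ± 19.5 CPM in control embryos and 13.9 ± 1.27 CPM in control oocytes, a log2 difference of 3.27 (SE 0.13, edgeR adjusted p = 6.4e-10). Unc45a, a myosin cochaperone, rose to 13.8 ± 5.37 CPM in control embryos, against 0.199 ± 0.132 CPM in control oocytes. Nudc fell to 46.0 ± 1.35 CPM in control embryos, against 304.9 ± 31.8 CPM in control oocytes, and the mitochondrial HSP90 Trap1 fell to 18.0 ± 2.28 CPM, against 55.2 ± 2.21 CPM.

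In the DNAJ family, whose members hand clients to HSP70, 15 of 43 rose and 23 fell, beside 43.1% and 40% of all genes. Dnajb9 rose most among genes with oocyte reads, with 596.9 ± 57.0 CPM in control embryos and 10.2 ± 1.68 CPM in control oocytes. Dnajc12 had 1167 reads over the control embryo libraries and 0 over the control oocyte libraries, at least 717-fold higher against a floor of 3 reads over the group. Dnajc11 fell to 58.8 ± 9.44 CPM in control embryos, against 545 ± 8.77 CPM in control oocytes, and Dnajb4 fell to 39.5 ± 5.91 CPM, against 365 ± 5.78 CPM.

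Of 27 genes of ER folding and the unfolded protein response, 17 were lower and 6 higher in control embryos, where 40% of all genes were lower and 43.1% higher. The sensors did not move together. Eif2ak3 (PERK) rose to 112 ± 8.81 CPM in control embryos, against 10.5 ± 0.721 CPM in control oocytes, while Atf6 fell to 24.0 ± 0.814 CPM, against 154 ± 7.20 CPM, and Ern1 (IRE1) fell to 225 ± 26.8 CPM, against 1382 ± 67.3 CPM. Of 18 chaperonin and prefoldin genes 8 rose and 8 fell. Cct6a, a subunit of the cytosolic chaperonin, rose to 144 ± 15.7 CPM in control embryos, against 0.979 ± 0.327 CPM in control oocytes, and the prefoldin genes Pfdn4 and Pfdn1 fell by 3.94 and by 3.77 (log2, SE 0.14 and 0.13, edgeR adjusted p = 2.5e-10 and 1.7e-10).

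Of 18 genes of mitochondrial folding and import, which include Hspa9, 7 rose and 7 fell. The protease gene Yme1l1 rose to 185 ± 26.2 CPM in control embryos, against 15.2 ± 0.451 CPM in control oocytes, and Tomm20, an import receptor, rose to 12.7 ± 1.13 CPM, against 1.27 ± 0.364 CPM. Of 3 small heat shock protein genes tested, 1 rose, Hspb1, at 11.9 ± 2.98 CPM in control embryos and 3.44 ± 0.948 CPM in control oocytes, and 2 fell. Hsbp1, an inhibitor of HSF1, and Hsf5 fell to 18.0 ± 1.30 and 21.3 ± 1.72 CPM in control embryos, against 71.7 ± 4.06 and 64.7 ± 6.29 CPM in control oocytes. Of 16 handling and immediate early genes, 13 rose and 1 fell (Dusp1), beside 43.1% and 40% of all genes, with Gadd45b at 67.6 ± 15.9 CPM in control embryos and 0.178 ± 0.114 CPM in control oocytes. Myc, in the same list, had 803 reads over the control embryo libraries and 3 over the control oocyte libraries. Embryos were cultured and oocytes were not, so stage and culture cannot be told apart for any of these genes. All embryos also carried a paternal JF1 genome and no oocyte did, so stage and the JF1 genome cannot be told apart either.

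**Figure D5:**
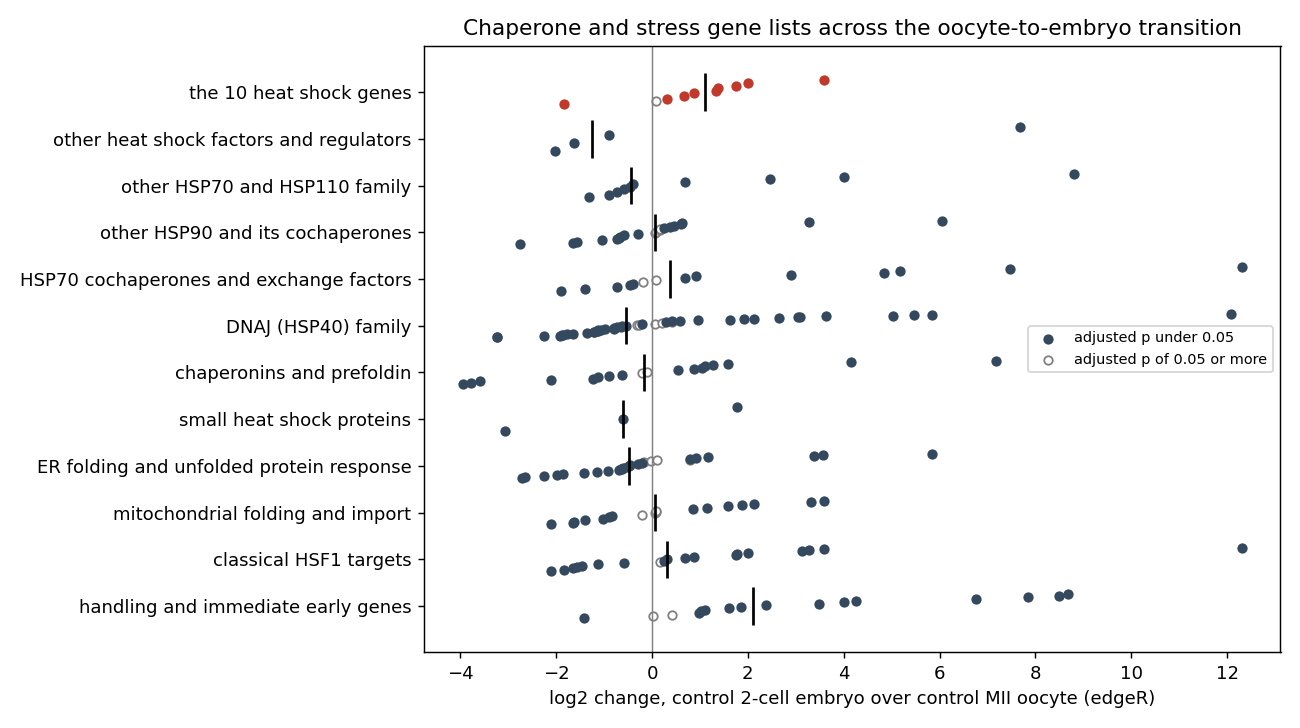
Log2 change of control 2-cell embryos over control oocytes for each tested gene of the lists (horizontal axis), with filled points for genes that passed and black bars at list medians. The 10 heat shock genes have a median of 1.10, with Hsp90aa1 alone below 0, while the lists of DNAJ and ER genes have medians of -0.53 and -0.48; points beyond about 12 rest on 3 or fewer oocyte reads.

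The genes most like Hsf1 over the 4 group means, by Euclidean distance of centred log2(CPM + 0.5) among 9374 genes with at least 10 CPM in a group, were Sbf2, Map4k3 and Ankrd11, at distances of 0.02998, 0.0339 and 0.0340. Sbf2, for example, had means of 347 CPM in knockout embryos, 317 in control embryos, 192 in knockout oocytes and 195 in control oocytes. Those most like Hspa1b were Fem1a, Birc6 and Sppl3, at distances of 0.0654, 0.0770 and 0.0795. Fem1a had means of 71.4 CPM in knockout embryos, 60.6 in control embryos, 20.5 in knockout oocytes and 18.7 in control oocytes. These are descriptions over 4 means that share their libraries.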

How the data were processed

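The authors deposited whole-number read counts per gene, by Entrez number, for 24421 genes in 11 libraries, with a width per gene that was used here only for levels per kilobase. SoLo RNA-Seq libraries were prepared from total RNA, per the labels' protocols. The submitters' processing notes name STAR 2.5.0a, SAMtools and the build GRCm38 (mm10). The counting program, its strand setting and its treatment of shared reads are not given in the sources, so the deposited counts of near-identical or overlapping genes are uncertain.

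Symbols and positions came from the RefSeq gene table of GRCm38.p6, which matched 24387 identifiers. The 34 others held at most 0.0325% of a library's reads. A count of 0 allows up to 0.0754 to 0.167 CPM (3 counts), for counting error only. Replicate pairs differed by a chi-square per degree of freedom of 5.10 to 37.2, so none was treated as a duplicate.

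Each comparison was fitted over all genes of its own groups with edgeR 4.0.16 in R 4.3.3: filterByExpr (count minimum 10, total minimum 15), TMM factors and the robust quasi-likelihood F test. P-values were adjusted by Benjamini-Hochberg over every gene tested, and 0.05 was the threshold. The difference between stages used all 11 libraries. Intervals are 95% t intervals for each gene alone, not adjusted for the number of genes tested. Shares within a library were compared by exact permutation over libraries. The labels call each pool a biological group, and p-values measure the spread between pools. Alternatives were DESeq2 1.42.0, limma-voom (limma 3.58.1), other factors and filters, 1 fit of all libraries, a replicate block and each library left out. The script was tested on simulated data.

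The 10 genes and the lists were chosen with earlier results of these data known. Named from each list were genes that passed between genotypes, or else some of those with the smallest p, and between control stages the 2 largest rises and 2 largest falls with at least 10 CPM. Hspe1 and Hsp90b1 beside their partners, Dnajb1 between stages and the Hspa8 spread were chosen after values were seen.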

Additional observations from a re-analysis of the deposited data

How the results depend on the processing

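Over 2462 recomputed values, the counts of the 10 genes that passed stayed within 1.5 times in every comparison and under every alternative run. None of the 59 values that changed sign was a call in its comparison. With library totals only, the oocyte genotype change of Hspa5 was 0.0093 and that of Hspa9 was 0.0092 on the log2 scale, and the difference between stages of the summed Hspa1a and Hspa1b reads was 0.0085, beside 0.060 in limma-voom. With both replicate 2 embryo libraries left out, the embryo genotype change was -0.25 for Hsf2, 0.37 for Hspa1a and -0.27 for Hspb1. Hspa1b alone over Hspa1b and Hspa8 differed by -0.790 percentage points between stages. The Hsp90aa1 share differed by -41.2 points in controls alone (exact permutation p of 0.1). DESeq2 called 1 of the other chaperone genes lower in knockout oocytes, and leaving out 1 library gave 0 to 2: 2 were called without control oocyte replicate 3, Hsf5 and Hspa4l. Ier2 passed in oocytes without a low-count filter. The cause of these changes was not tested.

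Whether replicate numbers pair the libraries could not be settled. Same-numbered oocyte libraries deviated with r = -0.23, 0.19 and 0.12, and differently numbered ones with r from -0.41 to 0.33. Same-numbered embryo libraries deviated with r = -0.22 and -0.07. With 2 knockout embryo libraries, the deviations of 1 mirror those of the other, so these r values cannot show or exclude pairing. With the replicate block, the embryo genotype change was -0.085 for Hspa8, 0.013 for Hspd1, -0.017 for Hsf2bp and -0.0068 for the summed pair, and the difference between stages of the summed pair was 0.17. The block left 0 of the 10 genes passing between genotypes and 8 higher and 1 lower between stages.

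Leaving out 1 library at a time, the oocyte genotype change ran from -0.12 to 0.33 for Hspa1a, -0.28 to 0.37 for Hspa1b, -0.11 to 0.13 for Hspa5, -0.24 to 0.36 for the summed pair, -0.042 to 0.019 for Hspa9 and -0.093 to 0.024 for Hsp90ab1. The embryo genotype change ran from -0.15 to 0.30 for Hsf2, -0.15 to 0.73 for Hspb1, -0.13 to 0.45 for Hspa1b, -0.023 to 0.098 for Hspa9, -0.050 to 0.31 for Hsf2bp, -0.15 to 0.39 for the summed pair, -0.13 to 0.60 for Hspa8, -0.068 to 0.013 for Hspd1 and -0.29 to 0.30 for Hspa1a. The difference between stages ran from -0.23 to 0.50 for Hspa8, -0.28 to 0.32 for the summed pair, -0.44 to 0.22 for Hspa1a, -0.21 to 0.46 for Hspa1b and -0.0099 to 0.088 for Hspa9. The stage change in knockouts ran from 1.96 to 2.54 for the summed pair.

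The embryo comparison rests on 2 knockout libraries, and Hsf2 and, in oocytes, Hspa1a had the lowest levels of the 10 genes.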
